A study of Homo sapiens with 4 samples.

Results

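The mRNAs described here are ATF4 and 9 genes of its programme: the stress regulators DDIT3 and TRIB3, the glutathione-degrading enzyme CHAC1, the asparagine synthetase ASNS, the serine and glycine enzymes PHGDH, PSAT1, PSPH and SHMT2, and the mitochondrial phosphoenolpyruvate carboxykinase PCK2. They were chosen by gene symbol, and all 10 were found among the 20322 targets of the deposited count table, each as 1 protein-coding transcript. RNA came from HT-29, a human colorectal adenocarcinoma line. Per the labels, the line was recovered from a liver metastasis in a mouse, and all 4 libraries come from cells in which IMP1 (IGF2BP1), an RNA-binding protein of fetal tissue and tumours, was targeted with CRISPR/Cas9 and which were grown with puromycin. The 2 null libraries carry the empty PiggyBac vector, and the 2 IMP1-OE libraries carry a PiggyBac vector with FLAG-tagged IMP1 and a short UTR. No source used here gives the promoter of the vector. The submitters describe 2 lines per genotype without saying if these were separate clones or cultures, so a p-value here reflects the spread among these 4 libraries and that spread may be technical.

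ATF4 is the transcription factor of the integrated stress response. When kinases that sense amino acid shortage, unfolded protein, haem deficiency or double-stranded RNA phosphorylate eIF2, general translation falls while ATF4 mRNA is translated more, because upstream reading frames in its leader no longer block the ribosome. ATF4 then pairs with C/EBP factors at composite DNA elements and raises genes of amino acid uptake, serine, glycine and asparagine synthesis and tRNA charging, together with DDIT3 (CHOP), a pro-apoptotic partner, and TRIB3, a pseudokinase that restrains the programme. In many tumours, colorectal ones among them, serine synthesis and ASNS are studied for the supply of amino acids to growing cells. The libraries measure RNA, so phosphorylation of eIF2 and the translation of ATF4 were not measured.

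The core of the composite element was searched in promoter sequences, because it is a DNA feature through which ATF4 is known to reach target genes. The windows are RefSeq's (GRCh38.p14) and run from 250 bases before to 50 after each annotated gene start. They were present for 8 of the 10 genes (not for PSPH and SHMT2). TGATGNAA, read on both strands, was found in 2 of these 8, CHAC1 and ASNS (in 1 of 2 annotated ASNS windows), against 4.46% of 27305 genes with a window. The capitals mark the match in the lines that follow. Both matches lie before the gene start, and both are printed on the minus strand.
CHAC1, chr15:40953251-40953280: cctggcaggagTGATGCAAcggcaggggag
ASNS, chr7:97872458-97872487: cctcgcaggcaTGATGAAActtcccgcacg
The E-box CACGTG, a palindrome bound by MYC and related factors, was found in the ATF4 windows and in no other of the 8 genes, against 8.77% of genes. The endoplasmic reticulum stress element (ERSE) was in 0 of the 8, against 0.0916% of genes. A match is only a run of letters in this window, and no binding was measured.

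Library totals ran from 9343429 to 10594813 estimated counts, and 3 counts, the most that a count of 0 allows, come to 0.285 to 0.328 CPM (counts scaled to library size, with TMM factors). The target ARSI alone took 17.8% and 17.3% of the counts in null replicates 1 and 2, and 8.01% and 12.4% in IMP1-OE replicates 1 and 2. With ARSI left out of the edgeR fit, the median log2 fold change of the 10 mRNAs was -0.86 and 0 genes passed. IGF2BP1 stood at 3.62 and 1.75 CPM in null and at 6.76 and 10.6 CPM in IMP1-OE, so its order followed the labels. Its log2 fold change of 1.69 (SE 0.56, edgeR adjusted p = 0.453) did not pass. The epithelial markers EPCAM, KRT8, KRT18, KRT19, KRT20, CDH1, VIL1 and LGALS4 were detected in every library, whereas the intestinal factor CDX1 had 0 to 9 counts and CDX2 0 to 47. Summed fibroblast markers came to 2.09 to 13.1 CPM and summed endothelial markers to 2.35 to 4.09 CPM, and CD3E and KDR were at 0 in all libraries. Summed hepatocyte markers came to 438 and 225 CPM in null and 686 and 725 CPM in IMP1-OE, nearly all of it SERPINA1, while ALB and APOA1 were at 0 in all libraries, APOB had 0 to 2 counts and TTR 1 to 18. Of the leukocyte markers, PTPRC had 0 to 5 counts, while lysozyme (LYZ), which secretory gut cells also make, had 12591 to 28605. Null replicate 2 stood apart: 20 interferon-stimulated genes summed to 8770 CPM there and to 985 to 1266 CPM in the other 3 libraries. Null replicate 1 differed too: the intestinal adhesion genes CEACAM6 and CEACAM5 had 1404 and 606 counts there against 11 to 78 and 35 to 107 in the other 3 libraries, CDX2 had 47 against 0 to 3, and the fibroblast marker LUM 74 against 5 to 9. The part of these differences in the values below was not tested, and the 10 mRNAs are therefore given with each null library left out.

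In IMP1-OE, 9 of the 10 mRNAs of the ATF4 group were at lower levels in both libraries than in either null library. The lowest relative to null were CHAC1 (4.46-fold lower), DDIT3 (3.11-fold), PCK2 (2.79-fold), ASNS (2.20-fold) and PSAT1 (2.03-fold), and SHMT2 was the exception. The place of DDIT3 rests on null replicate 1: without that library its log2 fold change was -0.63, behind PCK2 (-1.32), ASNS (-0.83), PSAT1 (-0.67) and PSPH (-0.64). In bulk RNA, fewer cells that carry an mRNA and less of it per cell cannot be told apart. Over all 12113 genes tested, 21.9% were lower in both IMP1-OE libraries without overlap. The median log2 fold change of the 10 was -0.86, against -0.02 over all genes tested. The edgeR quasi-likelihood test with Benjamini-Hochberg adjustment called 0 of the 12113 genes at 0.05 (0% of genes). Unadjusted, 707 lower and 526 higher genes had p under 0.05, and 7 of the 10 mRNAs were among the lower ones, where 5.84% of all genes were, and 0 among the higher ones (4.34%). DESeq2 called 168 genes on the same counts and limma-voom 1. DESeq2 had 4 of the 10 among its lower calls (CHAC1, ASNS, PSAT1 and PCK2), where 0.916% of genes were, the edgeR likelihood ratio test had 2 (CHAC1 and PCK2, 0.859% of genes), and the authors' deposited table calls the same 4, where 0.849% of its genes are called lower. With null replicate 1 left out DESeq2 called 3 of the 10 lower (ASNS, PSAT1 and PCK2, 4.32% of genes), and with null replicate 2 left out it called 5 (ATF4, ASNS, PSAT1, PHGDH and PCK2, 1.11%). With either IMP1-OE library left out, DESeq2 called 0 of the 10, and 30 and 36 genes in all.

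**Figure D1:**
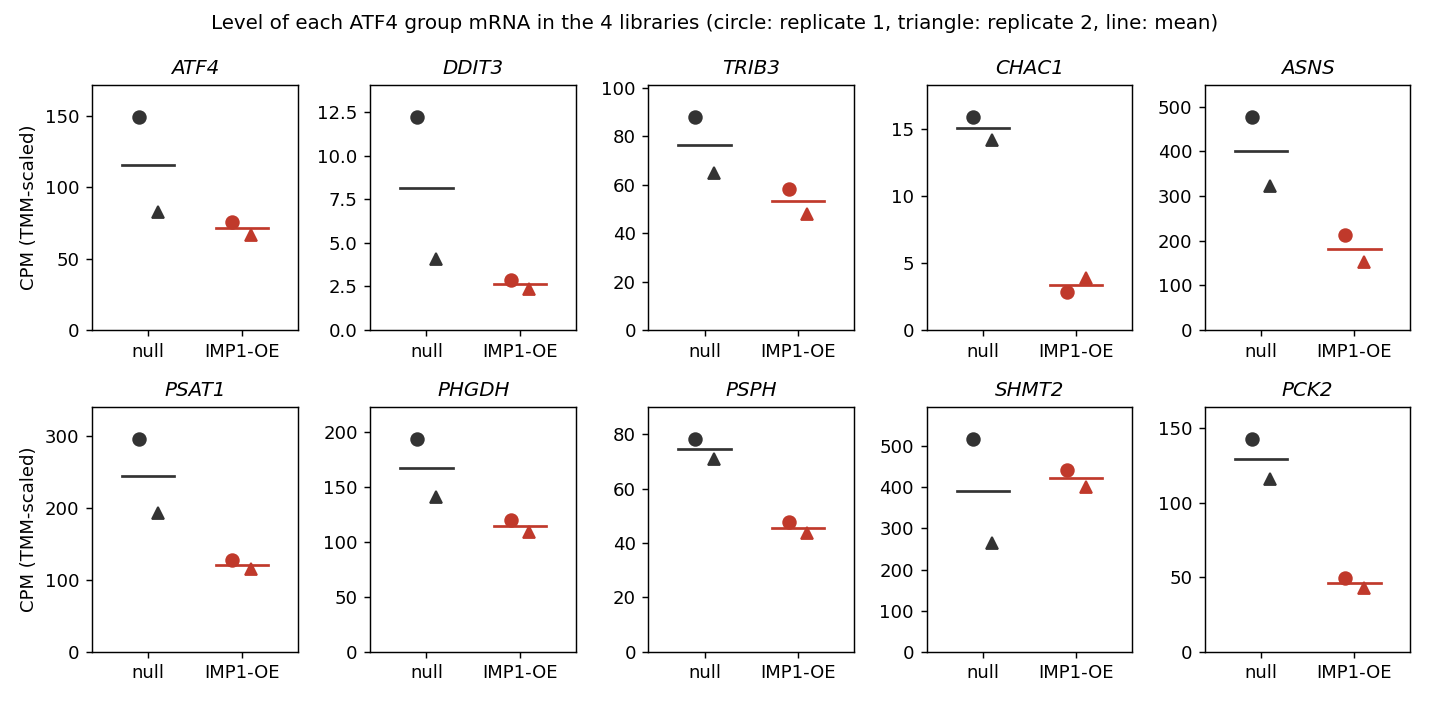
TMM-scaled CPM (vertical axes, each from 0) of the 10 mRNAs in the 2 null libraries (black) and the 2 IMP1-OE libraries (red), with circles for replicate 1, triangles for replicate 2 and lines for group means. The red points lie below both black points in every panel except SHMT2, and the black circle is above the black triangle in all 10.

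ATF4 mRNA itself stood at 149 and 82.3 CPM in null replicates 1 and 2 and at 75.4 and 66.8 CPM in IMP1-OE. Null replicate 1 was far above the other 3 libraries, and null replicate 2 lay only slightly above IMP1-OE. The log2 fold change was -0.70 (SE 0.30, edgeR adjusted p = 0.505), and neither edgeR nor DESeq2 called it. Without null replicate 1 it was -0.21, and without null replicate 2 it was -1.07, so the size of the difference rested on which null library was used.

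DDIT3 encodes CHOP, the bZIP factor induced by ATF4 in prolonged stress. Its counts were 125 and 37 in null and 30 and 25 in IMP1-OE, or 12.2, 4.05, 2.85 and 2.38 CPM. As with ATF4, 1 null library was high and the other 3 were close together. Its log2 fold change of -1.64 (SE 0.65, adjusted p = 0.484) became -0.63 when null replicate 1 was left out and -2.22 when null replicate 2 was. For DDIT3 the authors' deposited table lists a log2 fold change of -0.07 at an adjusted p of 0.416. DESeq2 refitted on all genes gave -1.64 at the same adjusted p. The deposited fold changes were smaller in size for the other members too, such as ATF4 (-0.21, against -0.70 in the refit). The deposited fold change is thus an unlike measure and not a different result. In RefSeq the gene overlaps MARS1, the methionyl-tRNA synthetase gene, which had 1963 to 3208 counts, and since no source used here says that counting used strand, the split of reads between the 2 genes is uncertain.

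TRIB3, the pseudokinase that binds ATF4 and dampens its output, was at 88.0 and 64.7 CPM in null and at 58.2 and 48.0 CPM in IMP1-OE. The groups did not overlap, but the gap between null replicate 2 and IMP1-OE replicate 1 was smaller than the gap between the 2 null libraries. The log2 fold change was -0.52 (SE 0.23, adjusted p = 0.506), and -0.28 without null replicate 1.

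CHAC1 encodes an enzyme that splits glutathione within the cell, and it is a late target downstream of ATF4. Null had 163 and 130 counts and IMP1-OE 30 and 41, which is 15.9 and 14.2 CPM against 2.85 and 3.90 CPM. Here the 2 null libraries were close to each other and both stood far above IMP1-OE. The log2 fold change was -2.16 (SE 0.38, edgeR adjusted p = 0.408). CHAC1 had the 37th smallest p of the 12113 genes. DESeq2 gave an adjusted p of 0.00273, and lost this call with any of the 4 libraries left out (adjusted p 0.0643 without null replicate 1, 0.0613 without null replicate 2, 0.887 and 0.384 without IMP1-OE replicates 1 and 2). The log2 fold change ran from -1.95 to -2.38 over the 4 omissions in edgeR.

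ASNS makes asparagine from aspartate and glutamine and is the best-known amino acid response gene. It was at 477 and 323 CPM in null and at 212 and 152 CPM in IMP1-OE, so both groups varied but stayed apart. The log2 fold change was -1.13 (SE 0.27, edgeR adjusted p = 0.433), with a DESeq2 adjusted p of 0.0146. In edgeR, leaving out null replicate 1 brought it to -0.83 and leaving out null replicate 2 to -1.39. Without IMP1-OE replicates 1 and 2 it was -1.39 and -0.90.

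Serine is made from a glycolytic intermediate in 3 steps, catalysed by PHGDH, PSAT1 and PSPH in that order. PSAT1, the aminotransferase of the middle step, was at 296 and 192 CPM in null and at 127 and 114 CPM in IMP1-OE. Its log2 fold change was -1.02 (SE 0.25, adjusted p = 0.435 in edgeR and 0.0261 in DESeq2). PHGDH, the dehydrogenase that opens the pathway, was at 194 and 141 CPM in null against 120 and 109 CPM, a log2 fold change of -0.55 (SE 0.21, adjusted p = 0.484). PSPH, the phosphatase of the last step, was at 78.4 and 71.0 CPM in null against 47.7 and 43.6 CPM. Its null libraries differed little, and its log2 fold change of -0.71 (SE 0.18, adjusted p = 0.435) was -0.64 without null replicate 1. PSAT1 and PHGDH were at -0.67 and -0.29 without that library. All 3 steps were thus at lower mRNA levels in both IMP1-OE libraries, and PSAT1 is the 1 that DESeq2 called with all libraries.

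SHMT2, which turns serine into glycine in mitochondria and feeds one-carbon units to folate, did not follow. It was at 519 and 264 CPM in null and at 443 and 401 CPM in IMP1-OE. Both IMP1-OE libraries lay between the 2 null libraries. The log2 fold change was 0.11 (SE 0.32, adjusted p = 0.937), and it changed sign with the null library used: 0.68 without null replicate 1 (edgeR adjusted p = 0.0522, DESeq2 adjusted p = 0.00131) and -0.30 without null replicate 2.

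PCK2 makes phosphoenolpyruvate from oxaloacetate in mitochondria, which links the citric acid cycle to the glycolytic intermediates that feed serine synthesis. It was at 143 and 116 CPM in null and at 49.8 and 43.1 CPM in IMP1-OE. Every IMP1-OE value was below every null value by more than the spread within either group. The log2 fold change was -1.48 (SE 0.20, edgeR adjusted p = 0.313), the 11th smallest p of all genes tested, and the DESeq2 adjusted p was 4.15e-06. With either null library left out PCK2 passed in edgeR as well, at -1.32 (adjusted p = 0.0161) without null replicate 1 and at -1.62 (adjusted p = 0.0383) without null replicate 2. In the fit without null replicate 1 it was the 1 member called lower, where 3.68% of all genes were, and without null replicate 2 it was called with PSAT1, where 0.248% of genes were. Without IMP1-OE replicate 1 or 2 it did not pass, in edgeR (adjusted p = 0.999 in both) or in DESeq2 (adjusted p = 0.123 and 0.358), at log2 fold changes of -1.59 and -1.37. PCK2 overlaps NRL in RefSeq, which had 5 to 14 counts. PCK1, the cytosolic enzyme of the same reaction, had 0, 0, 0 and 1 counts.

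**Figure D2:**
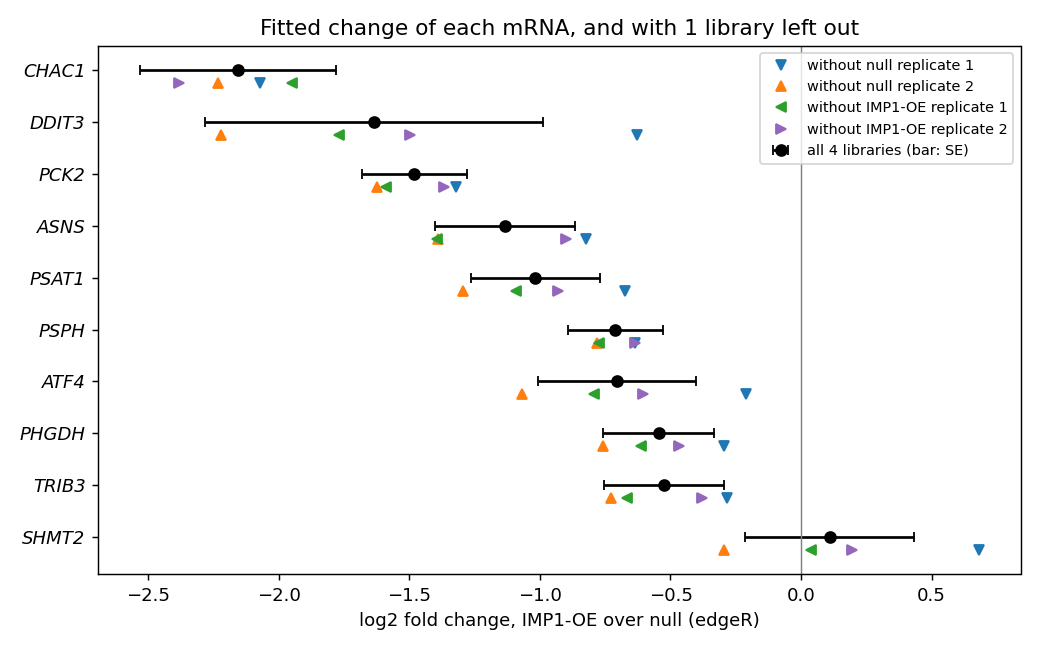
Fitted log2 fold change, IMP1-OE over null (horizontal axis), of the 10 mRNAs with all 4 libraries (black, bar: SE) and with 1 library left out (coloured triangles). PSPH and PCK2 shift least, while DDIT3, ATF4 and SHMT2 shift most between the fits without null replicate 1 and without null replicate 2.

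The replicates themselves differed along the group. Null replicate 1 exceeded null replicate 2 for all 10 mRNAs, with a median log2 difference of 0.51, where 49.8% of all genes tested were higher there and the median was 0.00. The ratio between the 2 null libraries was 3.02 for DDIT3, 1.97 for SHMT2 and 1.81 for ATF4, and only 1.23 for PCK2, 1.12 for CHAC1 and 1.10 for PSPH. In IMP1-OE, 9 of the 10 were higher in replicate 1 (median difference 0.16, against 0.00 over all genes), and CHAC1 was the exception. The null library with the lower ATF4 group values is the one with the high interferon sum, and their relation was not tested.

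Levels of different genes can be compared only per length, so CPM was divided by the length of the target in kilobases. In null, SHMT2 (181 ± 83.6 CPM per kb, mean ± SD, n = 2) and ASNS (175 ± 47.6) stood highest, and their libraries overlapped. PSAT1 (111 ± 33.3), ATF4 (93.1 ± 38.1) and PHGDH (89.7 ± 20.3) followed and overlapped one another. PCK2 (59.5 ± 8.76), PSPH (37.9 ± 2.66) and TRIB3 (32.4 ± 7.01) came next, and CHAC1 (9.92 ± 0.799) and DDIT3 (9.01 ± 6.40) were lowest. In IMP1-OE, SHMT2 (196 ± 13.9) stood alone above ASNS (79.6 ± 18.6), and PHGDH (61.5 ± 4.09), ATF4 (57.2 ± 4.86) and PSAT1 (54.6 ± 3.98) were close together. PCK2 (21.3 ± 2.18) overlapped PSPH (23.1 ± 1.45) and TRIB3 (22.5 ± 3.07) there, whereas in null both of its values lay above theirs. DDIT3 (2.90 ± 0.375) and CHAC1 (2.22 ± 0.485) were again lowest.

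Set against ATF4 mRNA in the same library, which removes the scaling between libraries, the members split. The per-length ratio of PCK2 to ATF4 was 0.547 and 0.805 in null and 0.377 and 0.368 in IMP1-OE. That of CHAC1 was 0.0873 and 0.141 in null and 0.0310 and 0.0477 in IMP1-OE. DDIT3, ASNS and PSAT1 were also lower relative to ATF4 in both IMP1-OE libraries, so 5 of 9 members were, where 2.11% of all genes were. TRIB3, PHGDH and PSPH overlapped between the groups on this scale. SHMT2 was higher relative to ATF4, at 2.00 and 1.85 in null and 3.39 and 3.46 in IMP1-OE, a direction that 50.4% of all genes shared. With 2 libraries against 2, an exact permutation test cannot give a p under 0.333, and no test was made on these ratios.

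**Figure D3:**
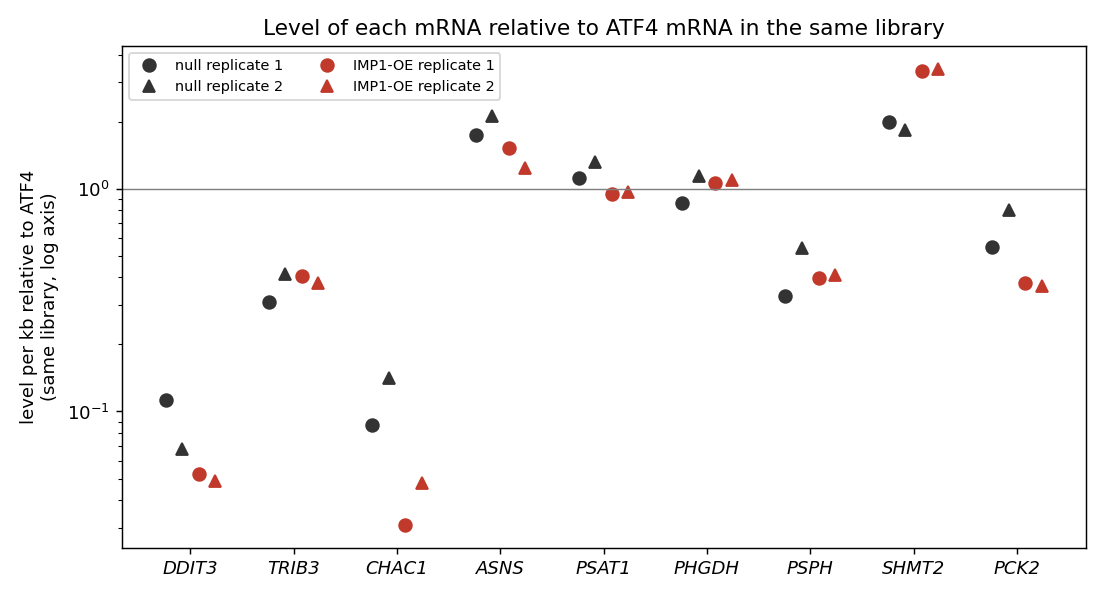
Level per kilobase of 9 mRNAs divided by that of ATF4 in the same library (vertical axis, log scale; line at equal levels), null in black and IMP1-OE in red. The red points lie below both black points for DDIT3, CHAC1, ASNS, PSAT1 and PCK2 and above them for SHMT2.

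Further genes of the response were read from lists of the pathway. Over all genes tested, 51.9% were lower in IMP1-OE, and 5.84% were lower and 4.34% higher at an unadjusted p under 0.05, and the counts of each list are to be read against these shares. Of 16 tested ATF4 partners and other transcription targets, 15 were lower in IMP1-OE (median log2 fold change -0.69), 5 of them at an unadjusted edgeR p under 0.05, and 1 passed in DESeq2. That gene was GDF15, a stress-induced secreted cytokine, at 362 and 294 CPM in null and 152 and 124 CPM in IMP1-OE (log2 fold change -1.25, SE 0.20, DESeq2 adjusted p = 6.7e-05). EIF4EBP1, a repressor of cap-dependent translation (-1.19), SESN2, an inhibitor of mTORC1 (-1.15), JDP2, a bZIP partner (-1.46), and CEBPG, the C/EBP factor that pairs with ATF4 (-0.72), were the other 4. None of these 4 passed in DESeq2.

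All 12 aminoacyl-tRNA synthetases, which charge tRNAs, were lower (median -0.30), 2 of them at an unadjusted p under 0.05: CARS1 (-0.62) and WARS1 (-0.60). This direction rested on null replicate 1, which was above null replicate 2 for 10 of the 12: without it 6 of 12 were lower and the median was -0.01. With all libraries, both IMP1-OE libraries were below both null libraries for 4 of the 12, where 21.9% of all genes tested were. NARS1, which charges the tRNA of asparagine, was at 263 ± 68.9 CPM in null and 203 ± 2.65 CPM in IMP1-OE, and SARS1, which uses serine, at 314 ± 69.3 against 248 ± 16.8 CPM. The amino acid transporters split, with 5 of 9 lower and a median of -0.13 (4 of 9 and 0.02 without null replicate 1, 8 of 9 and -0.22 without null replicate 2). SLC1A4, which carries serine and alanine, had 228 and 334 counts in null and 115 and 112 in IMP1-OE (-1.44, DESeq2 adjusted p = 0.0310). SLC6A9, a glycine transporter, was at -1.73 on few counts, 40 and 37 in null and 17 and 8 in IMP1-OE (SE 0.70, DESeq2 adjusted p = 0.468). SLC1A5, the glutamine transporter (-0.54), and SLC7A1, a cationic amino acid carrier (0.31), did not pass at an unadjusted p of 0.05.

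The response's upstream machinery did not share the direction. The list held 17 genes: those of eIF2, its kinases, its exchange factor eIF2B and its phosphatase subunits, with GCN1, DELE1 and OMA1. Of these, 9 were lower and 8 higher, with a median of -0.04. PPP1R15A (GADD34), the stress-induced subunit that directs dephosphorylation of eIF2, was at 26.7 ± 0.586 CPM in null and 13.1 ± 3.31 CPM in IMP1-OE (-1.03, unadjusted p = 0.0103), and EIF2B1, a subunit of the eIF2 exchange factor, was higher (0.62, unadjusted p = 0.0394). EIF2AK2 (PKR), the double-stranded RNA kinase and itself interferon-induced, had 679 and 1698 counts in null and 734 and 792 in IMP1-OE, and the high value was in null replicate 2. GCN1, the cofactor of the amino acid sensing kinase, was at 348 ± 83.8 and 441 ± 9.94 CPM.

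The enzymes around the members were mixed. In the one-carbon and glycine pathway 11 of 17 were lower (median -0.05), with ALDH1L1, a folate dehydrogenase, the 1 gene at an unadjusted p under 0.05 (66 and 345 counts in null, the higher in null replicate 2, and 34 and 68 in IMP1-OE). SHMT1, the cytosolic counterpart of SHMT2, was at 103 ± 3.95 CPM in null and 79.0 ± 0.333 CPM in IMP1-OE, TYMS, the thymidylate synthase, at 90.0 ± 6.41 and 119 ± 8.04 CPM, and GCSH, the carrier protein of glycine cleavage, at 35.6 ± 4.65 and 48.2 ± 0.230 CPM. Of 12 genes of proline, glutamate, aspartate and asparagine metabolism 9 were lower (median -0.20). Without null replicate 1, 6 of 12 were lower (median -0.01), and without null replicate 2, 8 of 12 (median -0.31). With all libraries, 0 reached an unadjusted p of 0.05 in edgeR or an adjusted one in DESeq2. ASS1, ASL and GOT1 were at -0.48, -0.44 and -0.37 and GOT2 at 0.31.

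Around PCK2, 10 of 14 enzymes of phosphoenolpyruvate and pyruvate were higher in IMP1-OE (median 0.12), opposite in sign to PCK2. ENO2, the neuronal enolase, which makes phosphoenolpyruvate in glycolysis, was at 27.2 ± 3.98 CPM in null and 54.4 ± 4.48 CPM in IMP1-OE (DESeq2 adjusted p = 0.0368), and ENO1, the main enolase, at 2997 ± 710.4 and 4546 ± 173 CPM (0.60, unadjusted p = 0.0282). FBP1, a gluconeogenic phosphatase, was lower like PCK2 (-0.75, unadjusted p = 0.0104). PC, which makes oxaloacetate, was at 36.3 ± 9.10 and 50.2 ± 0.834 CPM. Among 9 glutathione genes, OPLAH, which recycles the 5-oxoproline released by CHAC1 action, was also lower (-1.22, unadjusted p = 0.00819), while CHAC2, the close relative of CHAC1, had 113 and 34 counts in null and 170 and 149 in IMP1-OE (1.03, unadjusted p = 0.103). GGCT, which forms 5-oxoproline, stood at 0.50 and the transferase relative GGT7 at -1.26, both above an unadjusted p of 0.05.

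A list for the other branches of the unfolded protein response, with chaperones and folding enzymes, degradation factors, the sensors ERN1 (IRE1) and ATF6 and the factor XBP1, had 14 of 21 genes higher in IMP1-OE (median 0.08, and -0.01 with 12 of 21 lower without null replicate 2). The 7 lower genes were HERPUD1, DNAJB9, ERN1, SYVN1, XBP1, SEL1L and DNAJC3. SDF2L1 and PDIA4, both luminal folding factors, were higher at an unadjusted p under 0.05 (0.70 and 0.47). HERPUD1, a degradation factor that ATF4 also reaches, stood at 66.6 ± 5.75 CPM in null and 37.3 ± 2.65 CPM in IMP1-OE (-0.83, unadjusted p = 0.00466), and SYVN1, its ligase partner, was at -0.45 (unadjusted p = 0.0779). In DESeq2, 0 of the 21 passed.

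**Figure D4:**
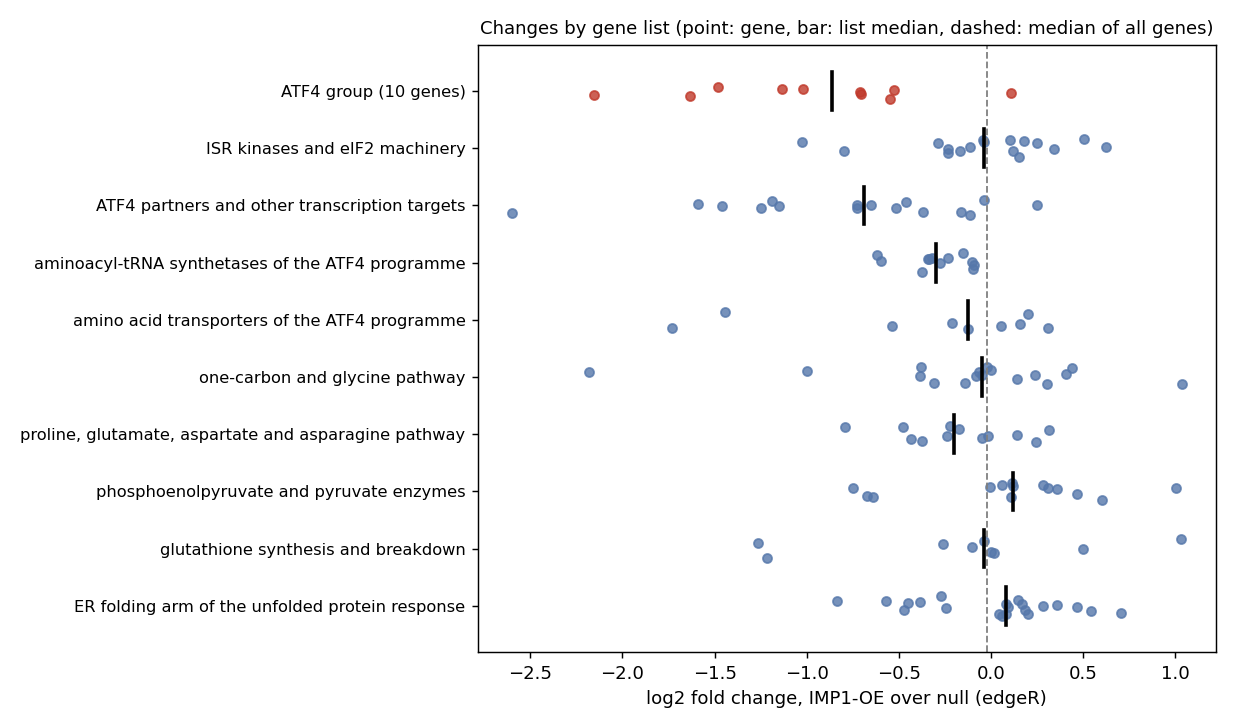
Log2 fold change, IMP1-OE over null (horizontal axis), of each tested gene (points) in the ATF4 group (red) and 9 lists (blue), with list medians as black bars and the median of all genes as a dashed line. The ATF4 group (-0.86) and the other ATF4 transcription targets (-0.69) have the lowest medians of the lists drawn, which leave out the interferon-stimulated genes (median -2.43), and the eIF2 machinery (-0.04) and the genes of the other unfolded protein response branches (0.08) lie near the dashed line.

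The ATF4 element was read in the promoter windows of the same lists. It was present in 7 of 10 tRNA synthetases with a window, 5 of 8 transporters and 4 of 14 transcription targets. The share over all genes with a window was 4.46%. Matches were also in 2 of 14 interferon-stimulated genes, 1 of 15 genes of the eIF2 list and 1 of 16 one-carbon genes. The other unfolded protein response branches had 1 of 20. Proline, glutamate, aspartate and asparagine genes had 1 of 9, phosphoenolpyruvate and pyruvate genes 1 of 17 and glutathione genes 0 of 6. The lines that follow show it in the genes of the response and unfolded protein lists that were at an unadjusted p under 0.05 and held it. It was in 1 of 2 annotated windows for CARS1, CEBPG and SLC1A4, in 1 of 3 for JDP2 and in the 1 window of HERPUD1. The capitals share the letters that the search required. The lines are printed on the plus strand for CARS1, JDP2 and CEBPG and on the minus strand for SLC1A4 and HERPUD1.
CARS1, chr11:3057407-3057436: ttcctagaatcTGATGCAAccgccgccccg
JDP2, chr14:75427995-75428024: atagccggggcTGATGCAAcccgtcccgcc
CEBPG, chr19:33374060-33374089: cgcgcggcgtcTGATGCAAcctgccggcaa
SLC1A4, chr2:64989381-64989410: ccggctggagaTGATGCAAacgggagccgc
HERPUD1, chr16:56931955-56931984: tgggcacgggcTGATGCAAcccgccgcgtc
PCK2, the member with the smallest p, and PSAT1 had no match in their windows. Genes with a match also included 6 synthetases with an unadjusted p above 0.05.

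Over the 4 libraries, the genes outside the group whose centred log2 CPM lay closest to PCK2 were TMPRSS2, a membrane serine protease (root mean square distance 0.0637 log2 units), CYP2W1, a cytochrome P450 (0.0811), and LGALS3, galectin-3 (0.0942). The closest member was ASNS, at 0.219. TMPRSS2 had 549 and 401 counts in null and 207 and 158 in IMP1-OE. Closest to CHAC1 were FAM83E (0.173), a target named only ENSG00000271810 (0.178) and CIDEC, a lipid droplet protein (0.200 log2 units), and the closest member was PCK2 at 0.392. FAM83E had 186 and 200 counts in null and 35 and 55 in IMP1-OE. These distances are descriptions over 4 libraries.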

How the data were processed

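RNA of 4 HT-29 libraries (2 null, 2 IMP1-OE) was quantified by the authors. Per the labels' protocols, RNA was fragmented at random, fragments of 18 to 50 nt were ligated to linkers with random-base identifiers, and ribosomal RNA was depleted. No source used here says whether the identifiers served to remove PCR copies, so the floor reflects counting error alone. The submitters' processing notes name kallisto 0.46.2, HISAT2 2.1.0, cutadapt 3.5, fastp 0.21 and DESeq but not what each did, and no source gives the build or annotation. The deposited values are estimated counts (kallisto, per the file headers), all whole numbers and used as they are, with 1 target and its length for each gene. The authors' deposited comparison table holds log2 fold changes, p-values and adjusted p-values, and a mean signal after size factors per gene, per the file headers. Refitting with DESeq2 on all genes gave the same 164 calls, with no word in the file on shrinkage. The table holds 2 further sample names, which are not analysed here.

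Counts were tested with edgeR 4.0.16 (R 4.3.3; TMM scaling, default filter, 12113 genes kept, all 10 members among them; quasi-likelihood F test, IMP1-OE against null, no covariate, Benjamini-Hochberg threshold 0.05). SE is the fitted log2 fold change divided by the root of F. CPM is TMM-scaled. Alternatives were each library left out on the same genes, the replicate block, other filters, other scalings, ARSI left out, the edgeR likelihood ratio test, limma 3.58.1 with voom, and DESeq2 1.42.0. DESeq2 without the filter was added after the data were seen. The steps were tested on simulated counts. Members and lists were chosen with earlier results of these data known. Named were all members, IGF2BP1, the list genes at an unadjusted p under 0.05 (or the 4 with the smallest p; interferon genes as a sum, and not all at length), and 3 pattern neighbours each of CHAC1 and PCK2. NRL, MARS1 and PCK1 are named as overlapping or related genes. Fragments this short can match copies: RefSeq names 5 pseudogenes of ASNS, 4 each of ATF4 and PSAT1 and 1 of PSPH, none of which is a target, so these counts are uncertain. A gene of a pathway list is not reported here.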

Additional observations from a re-analysis of the deposited data

How the results depend on the processing

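The direction of 9 of the 10 mRNAs was lower in IMP1-OE under all 18 alternatives run, and SHMT2 changed sign without null replicate 2, to -0.30 in edgeR and -0.29 in DESeq2 (its highest value with a library left out was 0.68 in edgeR). The number of genes past an adjusted p of 0.05, which was 0, became 168 with DESeq2, 164 with DESeq2 on all genes, 155 with the edgeR likelihood ratio test, 22 without the low-count filter and 1 with limma-voom. With 1 library left out it ran from 0 to 783 in edgeR: 783 without null replicate 1, 48 without null replicate 2 and 0 without either IMP1-OE library. In the same order DESeq2 called 1038, 271, 30 (without IMP1-OE replicate 1) and 36 genes (without IMP1-OE replicate 2). The members lower at an unadjusted p under 0.05, 7 with all libraries, ran from 2 to 9 in edgeR with 1 left out: 9 without null replicate 2, 4 without IMP1-OE replicate 1 and 2 without IMP1-OE replicate 2, and each such arm then has 1 library, assumed to vary like the other group. The share of all genes lower at that unadjusted p is not given for these fits, so these counts have no background to be read against. In edgeR the median log2 fold change of the members ran from -1.18 to -0.63 with 1 library left out. The cause of these differences was not tested. Other scalings kept the median between -0.86 and -0.78 and called 0 genes.

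The labels number the replicates alike in both groups, but nothing says that a number marks a shared culture, and with 2 pairs the numbers are only names (correlation of same-numbered deviations 0.12 across genes). With the replicate number as a block edgeR called 15 genes and 9 members were lower at an unadjusted p under 0.05, 0 of them past the adjusted threshold. For this fit too the share of all genes lower at that unadjusted p is not given, so the 9 cannot be read against it. The adjusted p of PCK2 was 0.0731 under the block, and over its 18 alternatives ran from 5.22e-08 to 0.999.

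Of the members, CHAC1 and DDIT3 rest on the fewest counts, 25 to 163 per library.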
